A study of Mus musculus with 70 samples.

Results

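The genes Sncg, Uchl1, Upk3a, Slc4a5, Lrrc26 and Iyd were followed through the lungs of mice exposed to 13 chemicals. They are 6 of the 18193 genes that the arrays measured, and all 6 were among the 14593 genes that passed a filter on low signal. They had been selected on their log2 difference from matched controls in mice fed 1,5-naphthalenediamine or malathion, so their values in those 2 comparisons are a description and carry no test. The other 11 chemicals were not named in that choice and were tested, although the genes were chosen with earlier results of these data known. The comparisons with N-(1-naphthyl)ethylenediamine dihydrochloride and pentachloronitrobenzene share their 3 controls with 1,5-naphthalenediamine, and those with 2,2-bis(bromomethyl)-1,3-propanediol, 4-nitroanthranilic acid and diazinon share their 4 controls with malathion.

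The 6 genes have distinct roles. Sncg encodes gamma-synuclein, a small protein of peripheral neurons and fat cells, and Uchl1 encodes a ubiquitin hydrolase that is abundant in neurons and marks the neuroendocrine cells of the airway. Upk3a encodes uroplakin 3A, a membrane protein of the urothelium that in mouse airway marks a small subset of club cells. Slc4a5 encodes a sodium bicarbonate cotransporter, Lrrc26 the gamma subunit that lets the BK potassium channel of secretory epithelia open at resting voltage, and Iyd the iodotyrosine deiodinase with which the thyroid recovers iodide. Club cells are the secretory cells of the mouse bronchiole, and their cytochrome P450 enzymes metabolise inhaled and ingested chemicals.

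Expression was measured on 70 Affymetrix mouse genome arrays, one per female B6C3F1 mouse, from the right lung lobe after 13 weeks of exposure, when the mice were 18 weeks old. Feed was given on 7 days a week and gavage on 5 days a week at 5 ml/kg. In the first set of animals, 3 mice each received 1,5-naphthalenediamine (2000 ppm in feed), N-(1-naphthyl)ethylenediamine dihydrochloride (2000 ppm in feed), pentachloronitrobenzene (8187 ppm in feed) or 2,3-benzofuran (240 mg/kg in corn oil), against 3 feed and 3 corn oil controls. In the second set, 4 mice each received malathion (16000 ppm), 2,2-bis(bromomethyl)-1,3-propanediol (at 1250 ppm), 4-nitroanthranilic acid (10000 ppm) or diazinon (200 ppm) in feed, against 4 feed controls. Coumarin (200 mg/kg), 1,2-dibromoethane (62 mg/kg) and benzene (100 mg/kg) were given to 4 mice each in corn oil, against 8 corn oil controls. N-methylolacrylamide (50 mg/kg) and 2-chloromethylpyridine hydrochloride (250 mg/kg) were given to 4 mice each in water, against 4 water controls. The labels record 1,5-naphthalenediamine as a lung carcinogen and malathion as negative for lung tumours in mice.

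Single animals of 2 groups stood apart. Malathion mouse 2-33 lay within the range of the controls for 28 of the 320 genes that differed in malathion lungs (8.75%), against 3, 1 and 1 of these genes in the other malathion mice. The 320 genes were called with mouse 2-33 in the group, which favours genes in which it differed from controls. The share is thus no measure of its likeness to controls over all genes. 2,2-bis(bromomethyl)-1,3-propanediol mouse 2-2 lay near the controls for Upk3a. Both also had the lowest albumin transcript (Alb) signal of their groups. Mouse 2-33 had 8.52, against 10.44 to 10.92 in the other malathion mice, mouse 2-2 had 8.28, against 10.18 to 11.41, and the 4 feed controls had 8.92 to 11.17. The summed signal of 7 liver cell genes was 9.87 in mouse 2-33 and 11.39 to 12.01 in the others, 9.50 in mouse 2-2 and 11.11 to 12.55 in the others, and 10.05 to 12.13 in controls, and 0 of these genes were called with either chemical. The part of these liver transcripts was not tested. No RNA integrity number was recorded for either animal, while the other mice of their groups had 7.9 to 8.3. Feed controls 2-43 and 2-45 also lacked this number. Results that rest on mouse 2-33 or mouse 2-2 are given with and without it. The tissue carried lung markers near the top of the scale, whose highest value was 14.5: Scgb1a1, of the airway's club cells, lay between 14.21 and 14.25 in the 4 feed controls of the second set. Whole lobes were measured, so that fewer cells of a type and less RNA per cell cannot be told apart.

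The promoter sequences of the genes are shown for the members on which the results turn: Sncg, which of the 6 differed most in 1,5-naphthalenediamine lungs, Iyd, which of the 6 differed most in malathion lungs, Upk3a, which was high with both, and Lrrc26, which passed the test with 2 other chemicals. The 250 bases before the annotated start are given 5′ to 3′ on the strand of the gene, as RefSeq lists them for GRCm38.p6. They lie at chr14:34374670-34374919 on the minus strand for Sncg, and on the plus strand at chr10:3540024-3540273 for Iyd, chr15:85016891-85017140 for Upk3a and chr2:25289661-25289910 for Lrrc26. Capitals mark matches to the core of the dioxin response element (GCGTG, or CACGC on the other strand), to which the Ah receptor binds.
Sncg: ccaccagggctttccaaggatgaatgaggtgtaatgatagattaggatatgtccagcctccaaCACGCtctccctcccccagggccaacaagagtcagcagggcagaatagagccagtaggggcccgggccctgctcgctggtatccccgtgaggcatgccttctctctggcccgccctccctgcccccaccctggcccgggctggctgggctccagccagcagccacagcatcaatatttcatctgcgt
Iyd: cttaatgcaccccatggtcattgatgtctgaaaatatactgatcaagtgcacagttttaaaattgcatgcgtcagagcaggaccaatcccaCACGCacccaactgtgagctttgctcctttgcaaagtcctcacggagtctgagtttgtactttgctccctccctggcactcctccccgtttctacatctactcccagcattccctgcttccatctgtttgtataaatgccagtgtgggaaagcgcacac
Upk3a: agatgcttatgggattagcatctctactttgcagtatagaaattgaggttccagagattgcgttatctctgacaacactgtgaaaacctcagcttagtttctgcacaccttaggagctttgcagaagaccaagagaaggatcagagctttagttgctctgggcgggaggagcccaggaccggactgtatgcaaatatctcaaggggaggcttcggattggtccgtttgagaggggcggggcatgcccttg
Lrrc26: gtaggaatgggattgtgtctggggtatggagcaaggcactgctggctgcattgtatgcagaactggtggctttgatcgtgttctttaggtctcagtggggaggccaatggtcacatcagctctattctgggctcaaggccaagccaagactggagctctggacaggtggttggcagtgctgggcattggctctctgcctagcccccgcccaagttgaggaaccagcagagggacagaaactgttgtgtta
Sncg held 1 core match, which began 187 bases before the start, and Iyd held 1, which began 159 bases before it. Of the 6 genes, these 2 held a match, and 28.2% of 32851 mouse promoter windows of the same length did. None of the 6 held the core of the antioxidant response element (TGACNNNGC on either strand), which 10.2% of all windows held. The windows of 5 genes lie at the annotated gene start, and that of Slc4a5 lies inside the gene, away from it. A match is a description of the letters in this window.

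In the lungs of mice fed 1,5-naphthalenediamine, the values that chose the genes were higher for Sncg, Uchl1 and Upk3a and lower for Slc4a5, Lrrc26 and Iyd. All 6 genes were fully separated from the 3 controls, in a comparison in which 1.11% of all genes tested passed an adjusted p of 0.05 by limma and 20.2% of them were separated from the controls in the same way. All signals are log2 values, and errors of differences are standard errors.

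Sncg had signals of 8.90, 9.06 and 8.75 in 1,5-naphthalenediamine lungs, against 6.62, 6.32 and 6.05 in feed controls. The lowest treated mouse lay far above the highest control. The difference was 2.57 ± 0.19, a 5.94-fold higher signal and the 15th highest difference of the 14593 genes. Uchl1 had 5.20, 5.29 and 5.36 in treated lungs and 4.64, 4.52 and 4.48 in controls (difference 0.74 ± 0.19). Both groups were tight, with SDs of 0.08 each, although this gene sits low on the scale, at the 32.9th percentile of all genes. Upk3a had 6.03, 6.42 and 6.03 in treated lungs and 5.26, 4.89 and 5.09 in controls, a difference of 1.08 ± 0.27.

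The other 3 genes were lower. Slc4a5 had 6.31, 6.17 and 6.49 in 1,5-naphthalenediamine lungs, against 7.79, 7.63 and 7.67 in controls, a difference of -1.38 ± 0.18 and the 5th lowest of all genes. Lrrc26 had 6.14, 6.46 and 6.39 in treated lungs and 7.85, 7.86 and 7.54 in controls, a difference of -1.42 ± 0.18 and the 2nd lowest. The treated signals of both genes were below those of every other array in the series. Iyd differed less, with 6.29, 6.20 and 6.10 in treated lungs, 6.97, 6.70 and 6.92 in controls, and a difference of -0.67 ± 0.28.

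**Figure D1:**
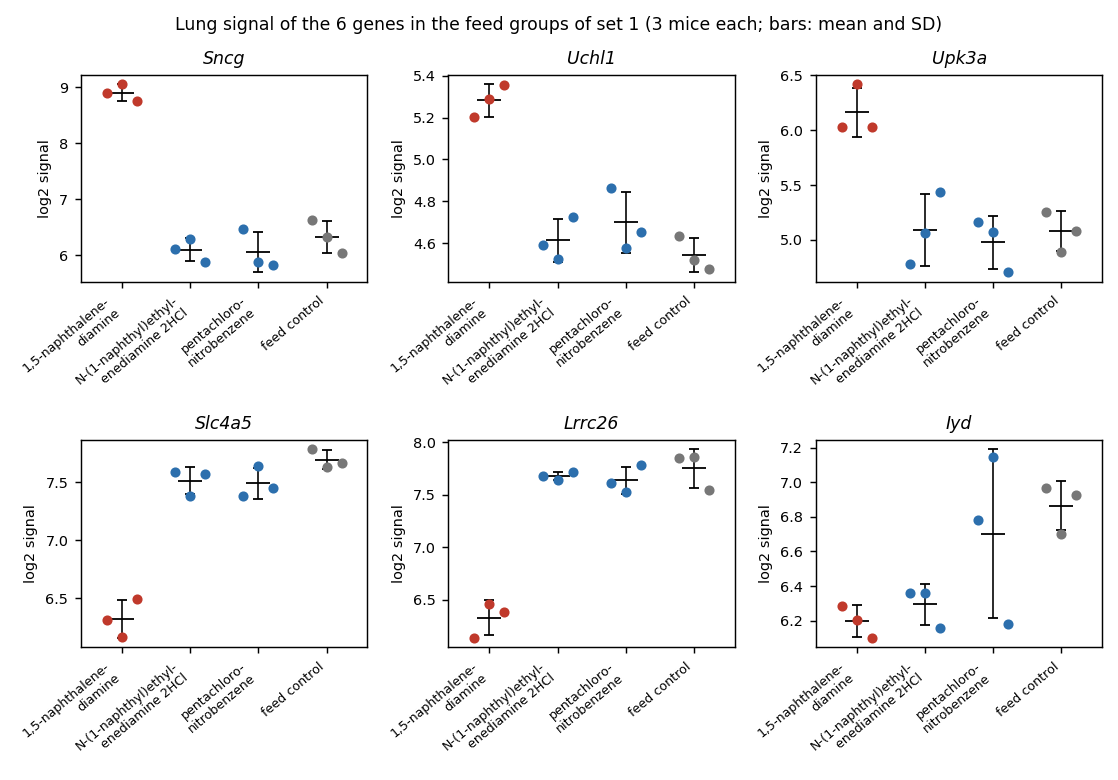
Log2 signal of each gene in each mouse of the 4 feed groups of the first set, with 1,5-naphthalenediamine in red, the other chemicals in blue and controls in grey, and with bars at the mean and SD (n = 3 each). 1,5-naphthalenediamine mice lie apart from all 9 other mice for Sncg, Uchl1, Upk3a, Slc4a5 and Lrrc26, but not for Iyd.

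Of the relatives of Sncg and Uchl1 (other synucleins, their partners and other ubiquitin hydrolases), 0 of 5 tested genes were called in 1,5-naphthalenediamine lungs, with a median change of -0.04 against -0.02 over all genes. The uroplakins also gave 0 calls of 5 tested (median 0.14). Of 16 tested genes of bicarbonate and anion transport 1 was lower, Car4, a membrane carbonic anhydrase of lung capillaries, at 10.6 ± 0.13 in treated lungs and 11.1 ± 0.23 in controls (SD, n = 3 each; limma adjusted p = 0.0453). The BK channel list gave 0 calls of 5 and the iodine and thyroid hormone list 0 of 11.

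Markers of the cells best known for Sncg and Uchl1 were set beside these values. The neuroendocrine list gave 0 calls of 10 tested genes (median -0.03) and the list of neurons and Schwann cells 0 of 7 (median -0.13), while 8 of 18 neuroendocrine genes measured, among them Chga, Chgb and Insm1, lay below the filter. The summed neuroendocrine signal was 9.97 to 10.04 in treated lungs and 10.03 to 10.16 in controls, and that of neurons and Schwann cells was 10.17 to 10.28 and 10.29 to 10.40. Of the fat cell markers 0 of 6 were called, with a summed signal of 10.93 to 12.31 in treated lungs and 11.08 to 12.55 in controls. Whether these cell types bear on Sncg and Uchl1 was not tested.

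Among airway markers, 1 of 12 club cell genes was higher, Nupr1, a stress-response regulator (0.98 ± 0.13, limma adjusted p = 4.43e-07). One of 10 goblet cell genes was higher, Gp2, a glycoprotein of secretory granules, at 8.12 ± 0.28 in treated lungs and 3.82 ± 0.31 in controls (SD, n = 3 each; adjusted p = 1.55e-10). The summed club signal was 16.39 to 16.47 in treated lungs and 16.44 to 16.58 in controls. One of 4 cartilage genes was lower, Chad, a matrix protein, at 6.77 ± 0.18 and 8.42 ± 0.47 (adjusted p = 0.000240). The part of these cell types in the values of the 6 genes was not tested.

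The structurally related N-(1-naphthyl)ethylenediamine dihydrochloride, which also carries a naphthalene ring, was fed at the same 2000 ppm, and its values stand beside those of 1,5-naphthalenediamine as a description. None of the 6 genes passed the test against controls, where 0.00685% of all genes did (1 of 14593). Sncg had signals of 6.12, 6.30 and 5.89 with this compound, within or just below the control range (difference -0.23, 95% interval -0.60 to 0.14, limma adjusted p = 0.795). Slc4a5 had 7.59, 7.38 and 7.57, all below the controls by a small margin, in a comparison where 18.3% of all genes did not overlap (-0.18, interval -0.53 to 0.17, adjusted p = 0.837), and Lrrc26 differed by -0.08 (interval -0.43 to 0.28).

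Iyd was the gene with the most similar value. It had 6.36, 6.36 and 6.16 with N-(1-naphthyl)ethylenediamine dihydrochloride, which were all below the 3 controls, and the difference was -0.57 ± 0.28 (interval -1.12 to -0.02), without a call (adjusted p = 0.648). With pentachloronitrobenzene none of the 6 genes was called, against 0.00685% of all genes, and the differences lay between -0.27 for Sncg and 0.16 for Uchl1.

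Malathion lungs showed a second pattern, again as a description of the values that chose the genes. Iyd and Slc4a5 were lower, Upk3a and Uchl1 were higher, Lrrc26 was lower in 3 of 4 mice, and Sncg differed by less than the spread of the controls. In this comparison 2.19% of all genes passed the test and 14.6% did not overlap with the controls, and 3 of the 6 genes (Uchl1, Slc4a5 and Iyd) did not overlap.

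Iyd had signals of 6.88, 5.50, 5.37 and 5.86 in malathion mice 2-33, 2-36, 2-38 and 2-39, against 7.70, 7.46, 7.98 and 7.75 in feed controls. Every treated mouse lay below every control, and mouse 2-33 lay closest to them. The difference was -1.82 ± 0.24, a signal 0.283 times that of controls and the 5th lowest difference of all genes, and without mouse 2-33 it was -2.15. Slc4a5 had 8.31, 7.08, 7.16 and 7.05 in the same order, against 8.37, 8.36, 8.39 and 8.37 in controls. The other 3 mice lay far below a control group whose SD was 0.01, and mouse 2-33 was just below it. The difference of -0.97 ± 0.15 was -1.28 without that mouse.

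Upk3a had 5.32, 7.26, 7.08 and 7.36 in malathion lungs and 5.20, 5.42, 5.19 and 5.20 in controls. Mouse 2-33 lay among the controls, and the other 3 lay far above them. The difference was 1.50 ± 0.24, the 6th highest of all genes, and 1.98 without mouse 2-33. The SD of Upk3a in the malathion group was 0.96, against 0.35 pooled over the 18 groups. For Slc4a5 these SDs were 0.61 and 0.22, and for Iyd 0.68 and 0.35. The standard errors rest on the shared spread, so for these genes they understate the spread among malathion mice. Uchl1 had 5.58, 5.82, 5.76 and 6.42 in malathion lungs and 5.07, 5.28, 5.29 and 5.32 in controls, with no overlap and a difference of 0.65 ± 0.16.

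Lrrc26 had 8.66, 7.80, 8.01 and 7.97 in malathion lungs and 8.39, 8.85, 8.32 and 8.52 in controls. Only mouse 2-33 reached the control range, and the difference was -0.41 ± 0.16 with it and -0.59 without it. Sncg had 6.69, 6.77, 6.93 and 6.73 in malathion lungs and 6.38, 6.86, 6.76 and 6.37 in controls (difference 0.18 ± 0.16), with overlapping groups. Among the 18 groups, the mean of Sncg was highest with 1,5-naphthalenediamine (8.90), and the next in order was 2,3-benzofuran (6.96).

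**Figure D2:**
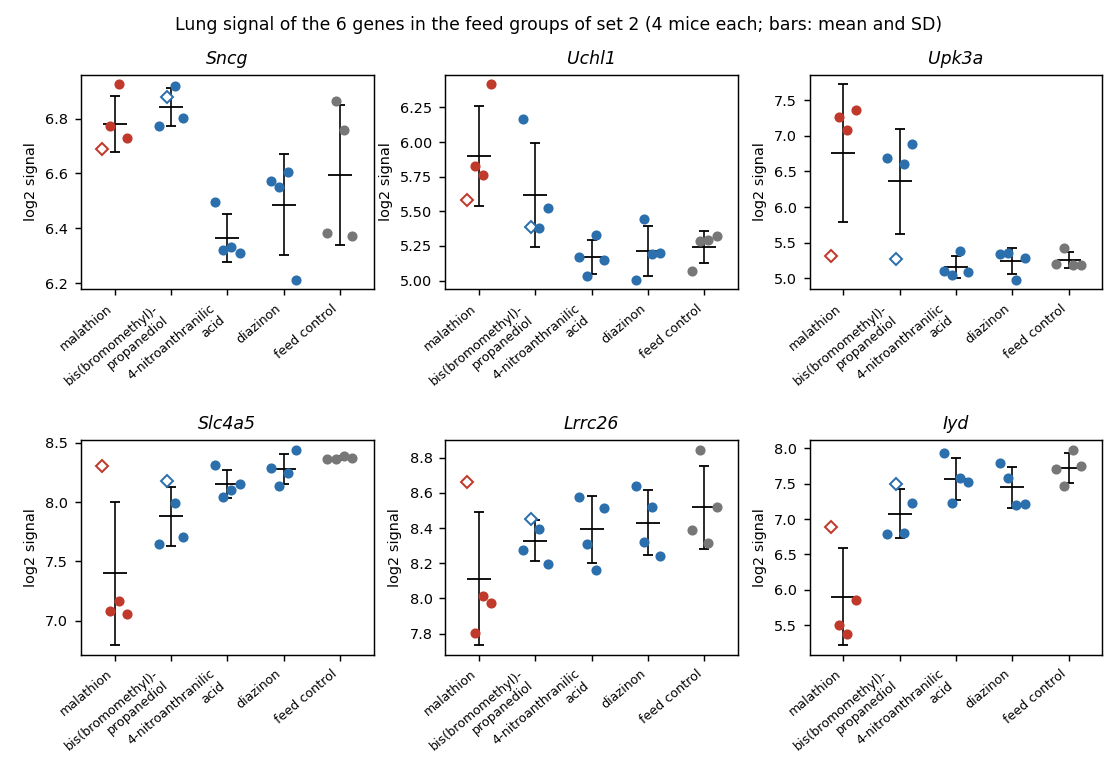
Log2 signal of each gene in each mouse of the 5 feed groups of the second set (n = 4 each; bars are mean and SD), with malathion in red, the other chemicals in blue, controls in grey, and open diamonds for malathion mouse 2-33 and 2,2-bis(bromomethyl)-1,3-propanediol mouse 2-2. Upk3a is high and Slc4a5 and Iyd are low in the 3 other malathion mice, and the open diamonds lie near the controls for Upk3a and Slc4a5.

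Of the relatives, 1 of 16 tested genes of bicarbonate and anion transport was lower in malathion lungs: Cftr, the chloride and bicarbonate channel mutated in cystic fibrosis. Its signal was 5.31 ± 0.28 in malathion lungs and 6.59 ± 0.41 in controls (SD, n = 4 each; difference -1.27 ± 0.30, limma adjusted p = 0.0128). The synuclein and ubiquitin hydrolase list (0 of 5), the uroplakins (0 of 5, median 0.18), the BK channel list (0 of 5) and the iodine and thyroid hormone list (0 of 11) gave no call. The median change over all genes was 0.02.

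Club cell markers moved with malathion: 4 of 12 were lower and 0 higher. Pon1, an esterase that breaks down organophosphate oxons, was at 10.3 ± 0.48 in malathion lungs and 11.4 ± 0.19 in controls (adjusted p = 0.000844). Scgb3a2, a secretoglobin, differed by -0.59 ± 0.11 and Cyp2f2, the naphthalene-activating P450 of mouse club cells, by -0.32 ± 0.06 (adjusted p = 0.00165 and 0.00156). Scgb1a1, the main club cell secretory protein, differed by -0.19 ± 0.05 (adjusted p = 0.0299).

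Mouse 2-33 was the nearest to controls for these markers too. Pon1 was 11.00 in this mouse, 10.28, 10.06 and 9.93 in the other malathion mice, and 11.61, 11.53, 11.21 and 11.29 in controls. The summed club signal was 16.10 to 16.50 in malathion lungs and 16.38 to 16.69 in controls. The neuroendocrine list gave 0 calls of 10 (median 0.11), with a summed signal of 10.43 to 10.58 in malathion lungs and 10.30 to 10.60 in controls, and the thyroid list 0 of 4.

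Among other cell types, Mbp, a myelin protein, was the 1 of 7 genes of neurons and Schwann cells that was higher (0.39 ± 0.09, adjusted p = 0.00995). Cd3e and Cd79a, of the T and B cell receptors, were the 2 of 6 leukocyte genes that were higher, and Krt19 was the 1 of 10 mesothelial genes. The summed leukocyte signal was 12.60 to 13.54 in malathion lungs and 12.12 to 12.54 in controls. Whether these cell types bear on the 6 genes was not tested.

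Diazinon, like malathion an organophosphorus insecticide, was fed at 200 ppm, against 16000 ppm of malathion, so the doses differ and the values are given side by side. None of the 6 genes was called with diazinon, where 0.00685% of all genes were. Upk3a had 5.34, 5.36, 4.98 and 5.29 (difference -0.01, interval -0.48 to 0.47, limma adjusted p = 0.997) and Slc4a5 had 8.29, 8.14, 8.24 and 8.44 (difference -0.09, interval -0.40 to 0.21). Iyd had 7.79, 7.58, 7.20 and 7.22, of which 2 lay below all controls, and the difference was -0.28 (interval -0.75 to 0.20, adjusted p = 0.884).

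2,2-bis(bromomethyl)-1,3-propanediol, a brominated flame retardant, was tested against the same 4 controls as malathion. None of the 6 genes was called, in a comparison where 0% of all genes were called by limma, 1568 genes had an unadjusted p under 0.05, and array weights gave 2958 calls. Upk3a had 6.68, 5.28, 6.60 and 6.88 in mice 2-10, 2-2, 2-4 and 2-6, against 5.20, 5.42, 5.19 and 5.20 in controls. The other 3 mice lay well above every control and mouse 2-2 lay among them. The difference was 1.11 ± 0.24 (interval 0.63 to 1.58), the 15th highest of all genes, with a limma adjusted p of 0.0633. The SD of Upk3a in this group was 0.73, against 0.35 pooled over the 18 groups, so the standard error understates the spread among these mice.

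Without mouse 2-2 the difference of Upk3a was 1.47, with a limma adjusted p of 0.000334, and Upk3a was then 1 of 8 genes called in all. That mouse was set apart by its Upk3a signal, so this adjusted p is a description and no test of Upk3a. With array weights the adjusted p of Upk3a was 1.7e-05, and Sncg, Slc4a5 and Iyd were also called. Slc4a5 had 7.65, 8.18, 8.00 and 7.71, all below the 4 controls (difference -0.49 ± 0.15, adjusted p = 0.303), where 15.3% of all genes did not overlap with them. Iyd had 6.79, 7.50, 6.81 and 7.22, with 3 mice below all controls (difference -0.65 ± 0.24, adjusted p = 0.378).

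Uchl1 had 6.17, 5.39, 5.38 and 5.52 with this chemical, all above the controls and 1 of them by a wide margin, and the difference of 0.37 ± 0.16 was not called (adjusted p = 0.429). Sncg differed by 0.25 and Lrrc26 by -0.19. None of the 12 club markers, 10 neuroendocrine markers or 6 leukocyte markers was called, and the summed club signal was 16.33 to 16.56 in treated lungs and 16.38 to 16.69 in controls. With 4-nitroanthranilic acid, 0% of all genes were called, 272 had an unadjusted p under 0.05 and 3.21% did not overlap with controls. None of the 6 genes was called. Slc4a5 lay below the controls, whose SD was 0.01, in all 4 mice (8.31, 8.04, 8.10 and 8.15, difference -0.22, interval -0.53 to 0.08).

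**Figure D3:**
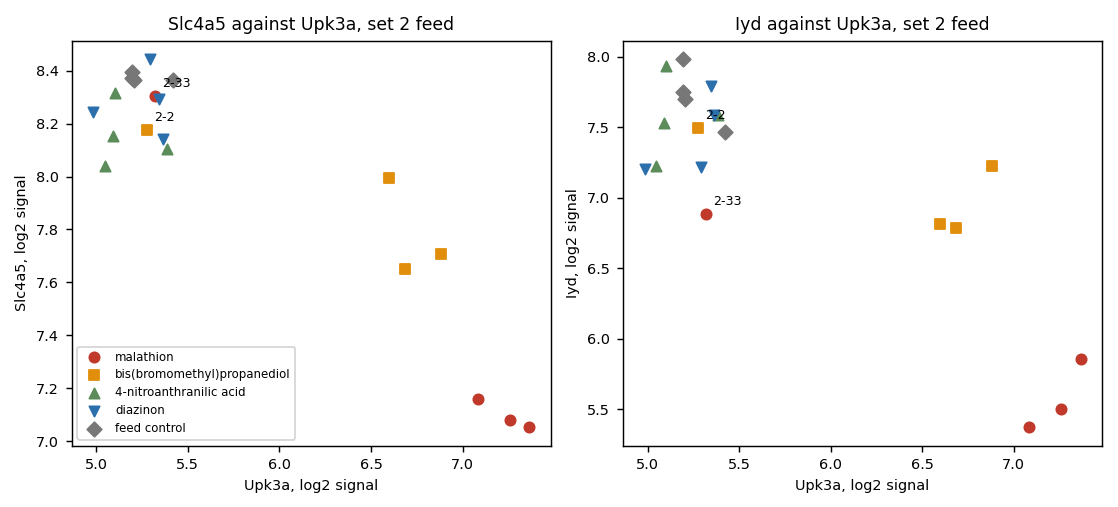
Log2 signal of Slc4a5 (left) and of Iyd (right) against that of Upk3a in each of the 20 mice of the feed groups of the second set. The 3 malathion mice with Upk3a above 7 have the lowest Slc4a5 and Iyd, and mice 2-33 and 2-2 lie with the controls, 4-nitroanthranilic acid and diazinon mice for Slc4a5.

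Over all 70 arrays, after the group means were taken out, Upk3a and Slc4a5 went in opposite directions (Pearson r = -0.71), the strongest relation among the 15 pairs of the 6 genes. Without mice 2-33 and 2-2, r was -0.40 over the 68 other arrays. It was -0.39 over the 62 arrays outside the malathion and 2,2-bis(bromomethyl)-1,3-propanediol groups. Slc4a5 and Iyd had r = 0.49 over 70 arrays and 0.24 without the 2 mice, and Upk3a and Iyd had -0.36 and 0.08. Sncg and Lrrc26 had 0.39, and 0.45 without the 2 mice. These values are descriptions over arrays that share their processing.

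Among the gavage groups, Lrrc26 rose with coumarin and with 1,2-dibromoethane, and Uchl1 rose with 2,3-benzofuran. These were 3 calls in the 66 tests of the 6 genes outside the comparisons that chose them. Of all genes, 4.09%, 4.03% and 4.07% were called with these 3 chemicals, and between 0% and 17.9% across the 11 comparisons. The count is not read as a property of the 6 genes. Corn oil and water comparisons share no array with those comparisons.

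Lrrc26 had signals of 9.11, 9.76, 9.20 and 9.71 in coumarin lungs, against a lowest value of 7.87, a median of 8.01 and a highest of 8.40 in the 8 corn oil controls. All 4 mice lay above all controls, where 2.37% of all genes did not overlap with controls. The difference of 1.37 ± 0.13 (interval 1.10 to 1.64, limma adjusted p = 3.69e-11) was the 30th largest rise of all genes. It was the 1 member called of 6, where 4.09% of all genes were called. The direction was opposite to that of 1,5-naphthalenediamine, and the group mean of 9.44 in coumarin lungs was the highest of 18 groups, while that of 6.33 in 1,5-naphthalenediamine lungs was the lowest.

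With 1,2-dibromoethane, Lrrc26 had 8.77, 8.43, 8.41 and 8.82. All 4 mice lay above all 8 controls, 2 of them narrowly, where 1.52% of all genes did not overlap with controls. The difference was 0.53 ± 0.13 (interval 0.26 to 0.80, limma adjusted p = 0.0157), and this was the 1 member called, where 4.03% of all genes were. The call was lost without mouse 2-52 (adjusted p = 0.0555), without mouse 2-58 (0.0798) and in a fit of the 2 groups alone (0.161), in which 10 genes of all were called, against 588. Mouse 2-56 had the highest difference between 3′ and 5′ probe sets of Actb and Gapdh of all 70 arrays, 0.99, against 0.14 to 0.25 in the other 3 mice and 0.16 to 0.34 in controls, and an RNA integrity number of 7.1. Without this mouse the difference of Lrrc26 was 0.59 (adjusted p = 0.0157), and with that measure as a covariate 0.54 (adjusted p = 0.0200). Coumarin was higher than 1,2-dibromoethane by 0.84 ± 0.15 (interval 0.53 to 1.15, adjusted p = 0.00194). That direct contrast was chosen after the data were seen, compares different doses, and called 1.54% of all genes.

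Relatives of Lrrc26 were called beside it. Kcnmb4, a beta subunit of the same BK channel, was 1 of 5 tested channel genes higher with coumarin, at 7.99 ± 0.10 in coumarin lungs and 7.04 ± 0.25 in controls (SD, n = 4 and 8; limma adjusted p = 5.3e-08). With 1,2-dibromoethane Kcnmb4 (0.39 ± 0.12, adjusted p = 0.0464) and Kcnmb2, another beta subunit (0.89 ± 0.20, adjusted p = 0.00535), were 2 of 5 higher. The pore-forming Kcnma1 was not called with either. Kcnmb4 was also higher with 2,3-benzofuran (1.08 ± 0.16, adjusted p = 7.58e-06), where Lrrc26 was not called. Of 16 genes of bicarbonate and anion transport, Slc4a1, Car2 and Car4 were lower with coumarin and Car4 was lower with 1,2-dibromoethane.

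Epithelial markers moved with both chemicals. With coumarin 3 of 10 goblet genes (Muc5ac, Agr2 and Gp2), 5 of 12 club genes and 5 of 8 ciliated genes were higher, and 3 of 7 endothelial genes were lower. Agr2, a chaperone of mucin-secreting cells, was 7.41 ± 0.72 in coumarin lungs and 4.77 ± 0.36 in controls (SD, n = 4 and 8; adjusted p = 2.2e-07). With 1,2-dibromoethane 2 of 10 goblet genes, 4 of 12 club genes and 3 of 8 ciliated genes were higher, and 3 of 7 genes of alveolar type II cells (Sftpa1, Slc34a2 and Etv5) were lower (-0.21 ± 0.06, -0.26 ± 0.07 and -0.62 ± 0.16). With coumarin 0 of those 7 genes were called. The cartilage gene Chad was higher with coumarin, at 10.11 ± 0.55 in treated lungs and 8.54 ± 0.35 in controls (SD, n = 4 and 8; limma adjusted p = 1.08e-06).

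The summed goblet signal was 12.02 to 13.90 in coumarin lungs, 10.43 to 13.77 in 1,2-dibromoethane lungs and 8.95 to 13.54 in controls. The summed club signal was 16.51 to 16.72, 16.54 to 16.75 and 16.28 to 16.61, and the summed ciliated signal 14.06 to 14.28, 14.07 to 14.27 and 13.78 to 14.03 in the same order. The part of these cells in the rise of Lrrc26 was not tested.

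**Figure D4:**
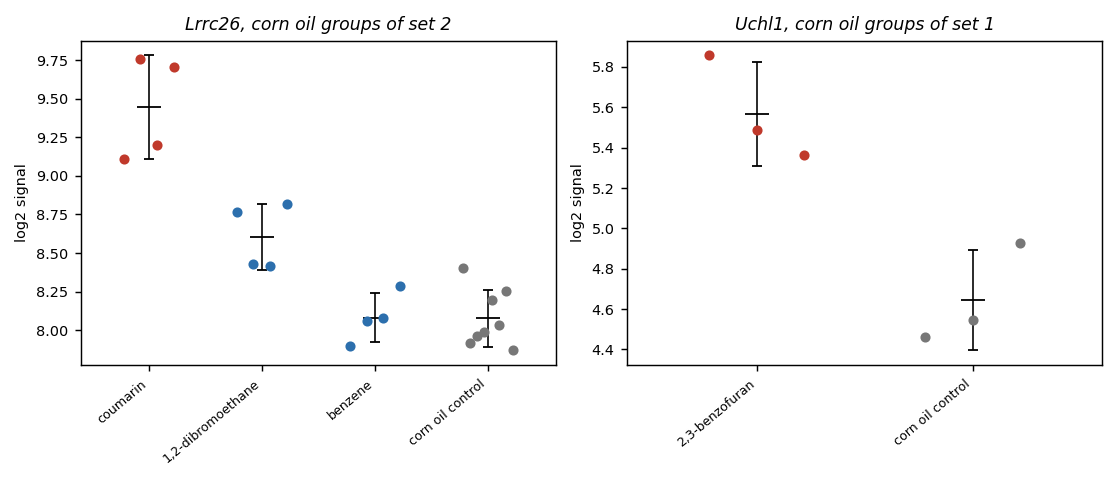
Log2 signal of Lrrc26 in the corn oil groups of the second set (left; n = 4 treated mice a group and 8 controls) and of Uchl1 in those of the first set (right; n = 3 each), with bars at the mean and SD. Coumarin mice lie between 9.11 and 9.76 for Lrrc26, above all other mice, and the 3 mice given 2,3-benzofuran lie above all 3 controls for Uchl1.

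Uchl1 had signals of 5.86, 5.49 and 5.36 in 2,3-benzofuran mice 1-10, 1-6 and 1-8, against 4.46, 4.54 and 4.93 in corn oil controls. All 3 mice lay above all controls, where 17.0% of all genes did not overlap with controls. The difference was 0.92 ± 0.19 (interval 0.55 to 1.30, limma adjusted p = 0.00155), the 44th largest rise of all genes. It was the 1 member called of 6, where 4.07% of all genes were called.

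The call was lost without mouse 1-10. Without it the difference was 0.78 and the adjusted p 0.0892, and in a fit of the 2 groups alone the adjusted p was 0.239. The calls over all genes also fell, to 47 without this mouse and to 9 in the fit of 2 groups, against 594. Its probe sets at the 3′ end of the Actb and Gapdh transcripts exceeded those at the 5′ end, a measure of RNA integrity, by 0.52 on average, against 0.16 and 0.10 in the other 2,3-benzofuran mice and 0.16 to 0.36 in controls. The RNA integrity number of mouse 1-10 was 8.9, against 9.2 and 9.4 in mice 1-6 and 1-8. It was 8.7 and 8.8 in controls 1-24 and 1-25. With the 3′ minus 5′ difference as a covariate, an alternative added after the data were seen, the limma adjusted p was 0.00179.

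The neuroendocrine list gave 0 calls of 10 with 2,3-benzofuran (median 0.12), with a summed signal of 10.19 to 10.55 in treated lungs and 9.89 to 10.12 in controls. The list of neurons and Schwann cells gave 0 calls of 7. Park7, a relative linked to Parkinson disease, was 1 of 5 genes of the synuclein and ubiquitin hydrolase list higher (0.39 ± 0.10, adjusted p = 0.0150), and 2 of 8 ciliated genes were higher. Their part was not tested.

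Iyd and Upk3a also lay above all controls in 2,3-benzofuran lungs, without a call, where 17.0% of all genes did not overlap with controls. Iyd had 7.94, 7.09 and 7.13 in treated lungs and 6.78, 6.45 and 6.30 in controls, a difference of 0.88 ± 0.28 (limma adjusted p = 0.0544). The adjusted p was below 0.05 in 4 of its alternatives, among them the fits without mouse 1-6 (0.0345) and without mouse 1-8 (0.0278). Mouse 1-10 had the value of 7.94. Without this mouse, and in the fit of the 2 groups alone, 0 of the 6 genes were called. The direction of Iyd was opposite to that with malathion. Upk3a had 5.24, 5.58 and 5.32 in treated lungs and 4.95, 4.83 and 5.02 in controls (difference 0.45 ± 0.27, adjusted p = 0.440). In the thyroid hormone list, Thrsp, a lipogenic gene that thyroid hormone induces, was 1 of 11 lower (-1.32 ± 0.38, adjusted p = 0.0318).

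With coumarin, Uchl1 had 5.54, 5.74, 5.13 and 5.54, of which 3 lay above all 8 controls (difference 0.40 ± 0.14, limma adjusted p = 0.0971, and 0.0370 without mouse 2-76). Resp18 was the only neuroendocrine gene called with coumarin (0.88 ± 0.18 higher, adjusted p = 0.000991). Scg3 was the only one called with 1,2-dibromoethane (0.42 ± 0.09 higher, adjusted p = 0.00329). Their part in the values of Uchl1 was not tested. Upk3a differed by 0.40 with coumarin and by 0.38 with 1,2-dibromoethane, with 2 of 4 mice above all controls in each, and neither was called. Of the uroplakins, Upk3b, a mesothelial member, was lower with 1,2-dibromoethane (-1.73 ± 0.51, adjusted p = 0.0389), where its SD was 2.65 over the 4 treated mice and 0.52 over controls. With benzene none of the 6 genes was called, against 0.0891% of all genes, and their differences lay between -0.07 and 0.14.

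The water groups gave no call among the 6 genes. With N-methylolacrylamide this stood against 17.9% of all genes called, the largest share of the 13 chemicals. Lrrc26 had 8.31, 7.99, 8.15 and 8.10 in treated lungs and 8.31, 8.44, 8.41 and 8.81 in controls, with 3 mice below all controls and a difference of -0.35 ± 0.15 (limma adjusted p = 0.0956). With 2-chloromethylpyridine hydrochloride, 0% of all genes were called, 1710 had an unadjusted p under 0.05 and 4.05% did not overlap with controls. Lrrc26 had 8.21, 8.10, 8.08 and 7.84, all below the controls (difference -0.44 ± 0.15, adjusted p = 0.351). Upk3a lay at 5.49 to 5.65, all above the controls at 5.34 to 5.45, without a call. Iyd differed by -0.54 ± 0.24 with this chemical, and 2 of its 4 mice lay below all controls.

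With N-methylolacrylamide, 4 of 16 tested genes of bicarbonate and anion transport and 2 of 5 of the synuclein and ubiquitin hydrolase list were called, beside 17.9% of all genes. Slc4a4, the other electrogenic sodium bicarbonate cotransporter of this family, was 0.65 ± 0.21 higher (adjusted p = 0.0264), Slc26a2 and Slc12a2 were higher, and Car14 was lower. Uchl5, a proteasome-bound relative of Uchl1, was 1.19 ± 0.31 higher (adjusted p = 0.00734) and Bap1, a nuclear relative, was lower (-0.35 ± 0.12, adjusted p = 0.0409).

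**Figure D5:**
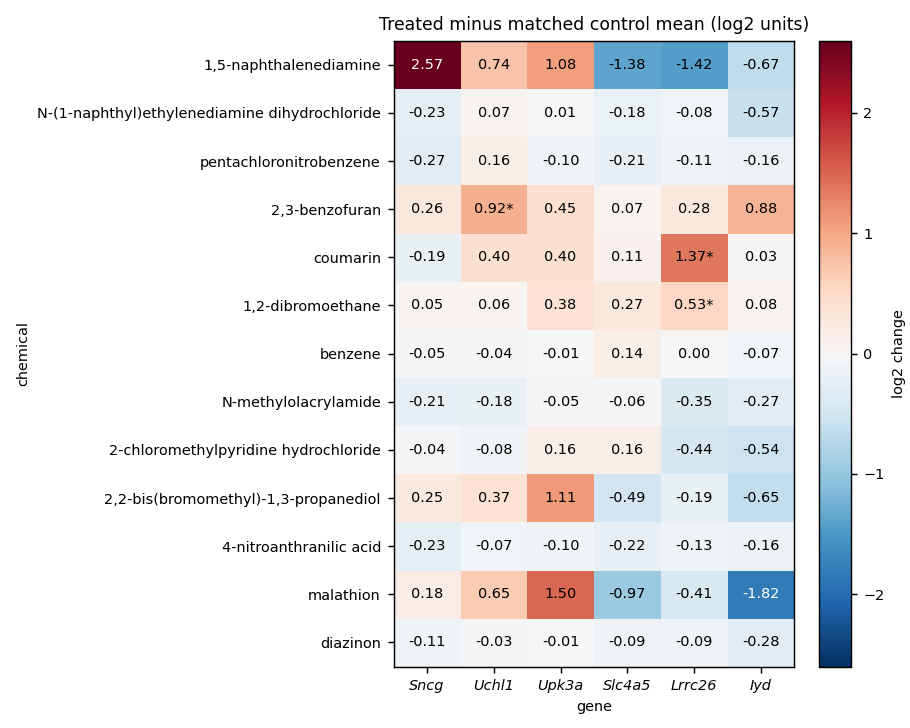
Treated minus matched control mean of log2 signal for each gene (columns) and chemical (rows), with higher values in red and lower values in blue. Asterisks mark the 3 tested values with an adjusted p under 0.05, and the rows of 1,5-naphthalenediamine and malathion, which chose the genes, were not tested.

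Across all 18 groups, the pooled SD within groups was 0.23 for Sncg and Uchl1, 0.35 for Upk3a and Iyd and 0.22 for Slc4a5 and Lrrc26. When groups were ordered by their mean, 2 of the 17 steps between neighbours exceeded that SD for every gene except Iyd, for which 0 did. For Sncg the top step, of 1.94, set 1,5-naphthalenediamine apart. Slc4a5 was lowest with 1,5-naphthalenediamine (6.32) and highest with 1,2-dibromoethane (8.47). Upk3a was highest with malathion (6.76) and lowest in the corn oil controls of the first set (4.94), and Iyd was lowest with malathion (5.90) and highest in the feed controls of the second set (7.72).

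Controls of the sets differed as well. Uchl1 averaged 4.59 over the 6 controls of the first set and 5.23 over the 16 of the second, Slc4a5 averaged 7.63 and 8.24, Lrrc26 7.69 and 8.29, and Iyd 6.69 and 7.39, in the same order. Sncg, at 6.51 and 6.62, and Upk3a, at 5.01 and 5.30, were closer. Levels set across the sets therefore hold this gap, while each chemical was compared within its own set.

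The genes whose pattern was most like that of each member were named by correlation. Over deviations from group means (70 arrays), Sncg was closest to Cox6a2 (r = 0.70), Cox8b (0.70) and Pgam2 (0.68), genes of striated muscle whose own change with 1,5-naphthalenediamine lay between -0.14 and 0.15. Over the 13 chemicals' changes it was closest to Cd177 (0.93), a neutrophil surface protein, Mzb1 (0.92), a plasma cell chaperone, and Edem1 (0.90), of protein quality control in the endoplasmic reticulum. Upk3a was closest to Psrc1 (0.69) and Gpx2 (0.62), a glutathione peroxidase, over arrays, and to the aldo-keto reductase Akr1b8 (0.93) over changes.

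Slc4a5 was closest to the ascorbate transporter Slc23a1 (0.75) and the amino acid transporter Slc6a20a (0.69) over arrays, and to Galm (0.89), Hykk (0.88) and the club cell gene Cyp2f2 (0.87) over changes. Lrrc26 was closest to Naxd (0.71) and Idh2 (0.71) over arrays, and to Chad (0.97) and the club cell gene Lypd2 (0.95) over changes. Iyd was closest to Gap43 (0.72) and Alg14 (0.71) over arrays and again to Alg14 (0.94) over changes. Uchl1 was closest to Prr15l (0.69) over arrays and to Gstp3 (0.96) over changes. All correlations over changes share control arrays between chemicals, and their 13 points include the 1,5-naphthalenediamine and malathion changes that chose the 6 genes. The genes closest over changes were picked by r over all 13, which include the 11 other changes. The r over those 11 is therefore no check apart from that choice. Over the 11 other changes, an alternative chosen after the data were seen, r was 0.74 for Sncg with Cd177, 0.61 with Mzb1 and 0.31 with Edem1, and 0.86 for Upk3a with Akr1b8. It was 0.60, 0.64 and 0.73 for Slc4a5 with Galm, Hykk and Cyp2f2, 0.95 for Lrrc26 with both Chad and Lypd2, 0.91 for Iyd with Alg14 and 0.95 for Uchl1 with Gstp3. None of the genes named here was one of the 6.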

How the data were processed

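The deposited log2 signals of 45101 probe sets on 70 arrays were used as the authors made them. How the probes were summarized is not stated in the sources used here, and the log2 scale was read from the values (2.47 to 14.5, array medians 5.41 to 5.52). Each array was one mouse, per the labels. Probe sets with 1 gene symbol in the platform table were kept, the one with the highest mean stood for its gene (each of the 6 genes had 1), and genes above the 30th percentile (4.25) were tested: 14593 of 18193. One limma model (version 3.58.1, R 4.3.3) took 1 mean for each of 18 groups over all 70 arrays, after a check on simulated data. A gene was called at a Benjamini-Hochberg adjusted p under 0.05 over all genes tested, and intervals are 95%. The number of arrays limits the precision. The 6 genes, the lists of relatives and markers and the alternatives were chosen with earlier results of these data known. The closest genes were the 3 with the highest Pearson r, of which the text names some, and called list genes were named by their calls. Promoters came from RefSeq (GRCm38.p6). Figures used matplotlib 3.10.9.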

Additional observations from a re-analysis of the deposited data

Results flagged for a closer look

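Of 72 gene and group combinations with 4 to 8 mice, 9 held a mouse far from the others of its group by Dixon's criterion, where chance flags about 1 in 20. Malathion mouse 2-33 was flagged for 2 genes: Upk3a at 5.32, against 7.08 to 7.36 in the other 3 mice, and Slc4a5 at 8.31, against 7.05 to 7.16. Mouse 2-2 of the 2,2-bis(bromomethyl)-1,3-propanediol group was not flagged for any gene. In feed controls of the second set, Uchl1 was low in mouse 2-42 (5.07) and Upk3a high in mouse 2-43 (5.42). Sncg was low in diazinon mouse 2-28 (6.21) and high in 4-nitroanthranilic acid mouse 2-13 (6.49). Upk3a was high in N-methylolacrylamide mouse 2-109 (5.61) and in 4-nitroanthranilic acid mouse 2-17 (5.38), and Iyd was high in coumarin mouse 2-80 (7.70), against 7.07 to 7.15 in the other 3. The causes were not tested.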

How the results depend on the processing

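Each count of called genes among the 6 and each member's value with the 11 tested chemicals was recomputed under other settings. These were no filter, a filter at the 50th percentile (which Uchl1 does not pass), the mean over probe sets, quantile normalization and the 2 groups alone. Further settings were a variance trend, array weights, RNA amount as a block where it varied, and leaving out each array. A 3′ minus 5′ covariate was added after the data were seen. The changes with 1,5-naphthalenediamine and malathion were recomputed under the same settings except the filters, the 2 groups alone and the variance trend. Of 1432 such values 1404 kept their side of the threshold or, without a test, moved by less than the spread between replicates (counts by less than 1.5 times), and 0 called values reversed. Some of these values could hardly move. Each of the 6 genes had 1 probe set, so the mean over probe sets left its differences unchanged, as did the filters. Leaving out 1 mouse, the change with malathion lay between -1.28 and -0.86 for Slc4a5 and between 1.30 and 1.98 for Upk3a. For the number of the 6 genes called, leaving out 1 mouse gave 0 to 1 with 2,2-bis(bromomethyl)-1,3-propanediol, 0 to 2 with 2,3-benzofuran, 1 to 2 with coumarin and 0 to 1 with 1,2-dibromoethane. Array weights gave 4 with 2,2-bis(bromomethyl)-1,3-propanediol, the 2 groups alone gave 0 with 2,3-benzofuran and 0 with 1,2-dibromoethane, where fewer arrays entered and 9 and 10 genes of all were called, against 594 and 588 with all arrays, and the covariate gave 2 with 2,3-benzofuran. The causes of the other shifts were not tested. No paired analysis was possible because animals carry numbers of their own. With 3 or 4 mice a group, a difference that missed the threshold is not shown to be absent.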
